A study of Mus musculus with 9 samples.

Results

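The differentially methylated regions (DMRs) described here are those in the last 5 Mb of each mouse autosome, the stretch that ends in the telomere away from the centromere. A DMR belonged to this set when its centre lay within 5 Mb of the end of chromosomes 1 to 19 in mm10. There were 570 such distal DMRs among the 12845 on these chromosomes and the 12949 in the whole table. The position of a DMR alone decided its membership, and no measured value was used. DNA came from the hypothalamus of C57/Bl6 males on postnatal day 6. Control males were compared with littermates given modified maternal separation (MMS), in which pups spent 1.5 h of days 4 to 6 outside the home cage and were turned onto their backs each time they righted themselves. The DNA of 10 males per group was combined into 3 pools per group, giving 3 control and 3 MMS libraries of methylated DNA immunoprecipitation (meDIP), beside 2 inputs and 1 IgG control. All animals shared strain, sex, age and tissue. The spread between single animals was not measured.

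In meDIP an antibody against methylated cytosine pulls down methylated fragments, so the reads over a region rise both with its methylation and with the number of CpG sites it holds. Methylation of mammalian DNA sits mainly on CpG dinucleotides, and these are thinly and unevenly spread, dense in gene-rich, GC-rich stretches and sparse in AT-rich ones. Mouse autosomes carry the centromere very close to one end, so that each has a single long arm with one distal end. The repeat TTAGGG, copied in tandem, forms the telomere itself, and the stretch before it is called subtelomeric. The values used are the deposited mean of normalised reads of each group on the log2 scale, and every difference below is MMS minus control. The lowest mean in the table was -0.17 in control and -0.24 in MMS, and a group within 0.5 of that value is said to be at its lowest value. A difference against such a group depends on where this value was set. The 3 libraries of a group appear in it as their mean alone. The spread between pools and the reads of each library behind a value therefore cannot be given, no test between the groups was run, and the DMRs are not replicates of one another.

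The reference sequences that follow show the kinds of DNA these DMRs are made of. Each is a stretch of at most 200 bases, around the centre of the DMR unless stated otherwise, on the plus strand of GRCm38 (mm10), with every CpG in capitals. The first is the DMR with the largest difference toward MMS among those with neither group at its lowest value. The second is in an annotated exon of Sprtn. The third, in Timeless, is the corresponding DMR toward control under the same limit. The fourth is the DMR nearest to any chromosome end.
Intergenic, chr8:126709733-126709932: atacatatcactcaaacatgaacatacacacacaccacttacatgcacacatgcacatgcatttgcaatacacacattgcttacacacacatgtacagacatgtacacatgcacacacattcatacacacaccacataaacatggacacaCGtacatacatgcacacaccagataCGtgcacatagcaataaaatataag
Sprtn exon, chr8:124902005-124902204: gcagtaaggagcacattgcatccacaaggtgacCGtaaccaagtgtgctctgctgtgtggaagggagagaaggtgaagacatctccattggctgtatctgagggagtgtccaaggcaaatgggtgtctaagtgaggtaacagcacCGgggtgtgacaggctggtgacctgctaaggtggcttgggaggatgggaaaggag
Timeless, chr10:128244684-128244883: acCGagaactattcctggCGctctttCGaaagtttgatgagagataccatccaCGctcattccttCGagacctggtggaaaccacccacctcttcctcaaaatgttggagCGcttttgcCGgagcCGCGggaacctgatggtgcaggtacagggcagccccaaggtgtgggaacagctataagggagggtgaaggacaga
Nearest to an end, chr5:151708057-151708256: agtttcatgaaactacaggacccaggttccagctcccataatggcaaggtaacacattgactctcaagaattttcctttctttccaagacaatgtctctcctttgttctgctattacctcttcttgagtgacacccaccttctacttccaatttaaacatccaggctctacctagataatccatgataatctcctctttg

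The next 4 begin with the DMR nearest to an end among those higher in control. Then comes the DMR with the most CpG per 100 bp among those at least 300 bp wide. The others are, in each direction, a DMR at an annotated start inside a gene, 54.1 kb into Kcnab2 and 16.3 kb into Baiap2.
Near the end of chromosome 19, chr19:61248468-61248667: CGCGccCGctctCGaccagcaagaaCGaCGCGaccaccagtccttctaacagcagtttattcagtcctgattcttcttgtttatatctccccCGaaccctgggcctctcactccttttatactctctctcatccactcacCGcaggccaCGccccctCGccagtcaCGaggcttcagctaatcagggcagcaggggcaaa
Most CpG, chr15:99380749-99380948: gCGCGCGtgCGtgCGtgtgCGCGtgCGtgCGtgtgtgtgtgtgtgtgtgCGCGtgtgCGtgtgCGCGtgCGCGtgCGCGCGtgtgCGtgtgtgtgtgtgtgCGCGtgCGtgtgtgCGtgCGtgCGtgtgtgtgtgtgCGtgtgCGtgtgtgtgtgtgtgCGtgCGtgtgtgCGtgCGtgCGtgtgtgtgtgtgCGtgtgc
Kcnab2 internal start, chr4:152423627-152423826: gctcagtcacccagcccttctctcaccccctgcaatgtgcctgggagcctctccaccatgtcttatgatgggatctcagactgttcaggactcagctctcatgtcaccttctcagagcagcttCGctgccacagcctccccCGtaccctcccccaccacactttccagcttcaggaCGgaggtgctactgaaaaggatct
Baiap2 internal start, chr11:119959010-119959167: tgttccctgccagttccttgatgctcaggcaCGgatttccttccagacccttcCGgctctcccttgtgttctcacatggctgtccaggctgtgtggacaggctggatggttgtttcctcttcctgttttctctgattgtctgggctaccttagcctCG

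The first stretch holds 2 CpG in a run of short CA-rich repeats, and the last DMR of chromosome 5 holds 0 in its whole 226 bp. The stretch near the end of chromosome 19 holds 12 and the one on chromosome 15 holds 34, the latter in a simple repeat of CG and TG steps. Most distal DMRs lay between these extremes. Their median was 1.46 CpG per 100 bp, with quartiles of 0.951 and 2.05, against 1.32 (0.889 and 1.88) in the 12275 DMRs of the rest of the same chromosomes. By chromosome the distal median was the higher on 11 of 19, and the mean difference over chromosomes was -0.0113 with an SD of 0.309, so the pooled difference was not seen when each chromosome counted once. A total of 11 distal DMRs (1.93%) held no CpG, against 2.42% in the rest. The widest of these were chr2:178484266-178485089 in an intron of Cdh26 (-0.17 in control and 4.02 in MMS) and the intergenic chr2:179137099-179137716 (-0.17 and 4.44) and chr15:102024487-102024803 (1.93 and 4.56). More than 5 CpG per 100 bp were held by 3 distal DMRs (0.526%, against 0.228% in the rest), among them the one on chromosome 15 shown above, chr15:99380281-99381418, with 93 CpG in 1138 bp (2.27 and 4.51).

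Density in the last 5 Mb was slightly above that of the rest. The distal windows held 6.17 DMRs per Mb of sequence without runs of N, and the rest held 5.33, a ratio of 1.16. The distal sequence was also richer in CpG, with 0.958 per 100 bp against 0.846, had a GC content of 43.8% against 41.9%, and was repeat sequence over 31.2% against 33.6% of its length. Counted per 10000 CpG sites, the densities were 6.44 and 6.30, a ratio of 1.02. The 5 Mb just before the distal windows, 5 to 10 Mb from the end, were denser than both, with 845 DMRs at 8.95 per Mb and 7.84 per 10000 CpG. The first 5 Mb of sequence at the proximal end, beside the centromere, held 394 DMRs at 4.12 per Mb. These are counts of called DMRs, since the regions that were tested and not called are not part of the table.

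Within the last 5 Mb, density fell toward the end. From the inner edge outward the 5 intervals of 1 Mb held 151, 137, 133, 90 and 59 DMRs, or 7.99, 7.27, 7.01, 4.74 and 3.54 per Mb. The last 2 Mb were thus less dense than the rest of the autosomes, whereas the 3 Mb before them were denser. The CpG content of the reference fell along the same path, from 1.10 to 0.733 per 100 bp. Per 10000 CpG sites the density still fell, from 7.26 in the innermost interval to 4.84 in the outermost. In the outermost Mb 42 of 59 DMRs were higher in MMS, 71.2% with a 95% Wilson interval of 58.6 to 81.2, and in the next Mb 67.8% (57.6 to 76.5). These intervals cover counting error only. They overlap those of the other 3 distal intervals, of which the lowest was 49.3 to 65.6 at 3 to 4 Mb. Farther in, up to 30 Mb from the end, single intervals ranged from 50% (42.1 to 57.9) at 9 to 10 Mb to 70.9% (63.4 to 77.4) at 6 to 7 Mb, so a share close to that of the outermost Mb was also found there.

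**Figure D1:**
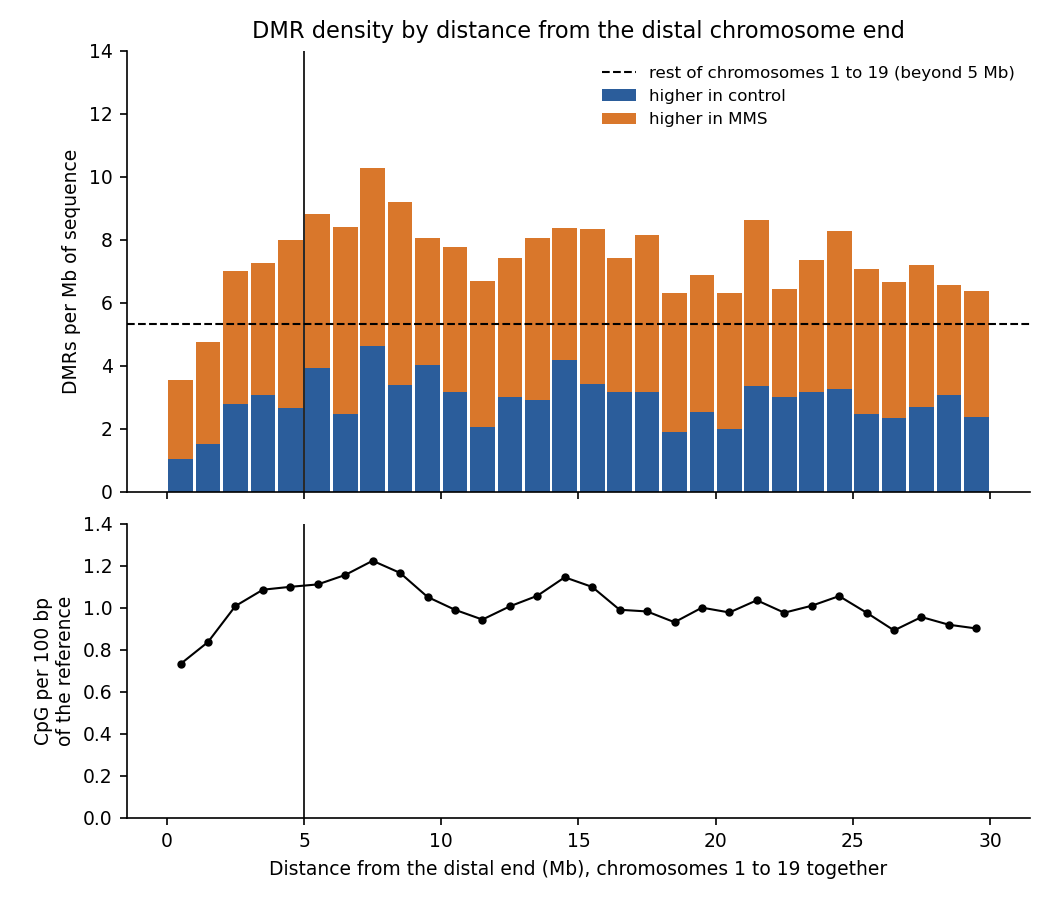
DMRs per Mb of sequence in 1 Mb intervals from the distal end, summed over chromosomes 1 to 19 and split into those higher in control and higher in MMS (top, with the density of all DMRs beyond 5 Mb as a dashed line), and the CpG content of the reference in the same intervals (bottom); the vertical line marks 5 Mb. Density is 3.54 per Mb in the outermost interval and 10.3 per Mb at 7 to 8 Mb, where CpG content is also highest.

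The 570 DMRs were also set against the number that the rest of the autosomes would give at the same CpG content, taking the density of the other 1 Mb intervals in the same of 10 classes of CpG content. That number was 593 for the last 5 Mb, so that observed over reckoned was 0.961. It was 0.886 in the outermost Mb, 0.937 in the next, 0.976 and 0.923 in those after, and 1.03 in the fifth. From 5 to 10 Mb it was 1.09. In the last 2 Mb 149 DMRs stood against 163 reckoned, and the observed count was the lower on 10 of 19 chromosomes. The distal density was thus slightly below the rest by this count, which was chosen after seeing the data, and slightly above it per CpG site.

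Density differed far more among the 19 ends than between distal and other sequence. It ran from 1.43 per Mb at the end of chromosome 3 (7 DMRs) to 11.9 at the end of chromosome 4 (57 DMRs), with a median of 6.67. For the rest of each chromosome the range was 4.21 to 6.94, but these are averages over far longer stretches. Single 5 Mb windows in the rest ran from 1.01 to 14 per Mb, so windows of like size varied as widely as the ends. The distal window was denser than the remainder of its own chromosome on 13 of 19. The mean difference between both densities was 0.773 per Mb with an SD of 2.92 over the 19 chromosomes, so it was well within the spread between chromosomes. A total of 8 ends were denser than the rest of any chromosome averaged as a whole, and 5 were less dense. Per 10000 CpG sites the end was the denser on 9 and the less dense on 10.

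The DMR-rich ends were those of chromosome 4, chromosome 11 (10.8 per Mb, 53 DMRs), chromosome 5 (9.62, 47 DMRs), chromosome 19 (8.78, 43 DMRs) and chromosome 16 (8.16, 40 DMRs). At the end of chromosome 4 CpG content was 1.51 per 100 bp and there were 19.2 protein-coding genes per Mb, against 0.856 and 8.39 in the rest of that chromosome. The end of chromosome 11 likewise had 1.44 CpG per 100 bp and 22.4 genes per Mb. The DMR-poor ends were those of chromosomes 3, 18 (1.84 per Mb, 9 DMRs), 17 (2.24, 11 DMRs), 12 (2.45, 12 DMRs) and 13 (2.71). The end of chromosome 3 had 0.517 CpG per 100 bp and 2.65 genes per Mb, and that of chromosome 17 had 0.484 and 0.612. Gene density did not order the ends in the same way throughout. The DMR-poor end of chromosome 13 had 6.67 genes per Mb against 7.18 in its rest, the DMR-rich ends of chromosomes 5 and 19 had 8.19 against 8.53 and 8.57 against 12.7, and the end of chromosome 10 had 33.9 genes per Mb with 6.73 DMRs per Mb.

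**Figure D2:**
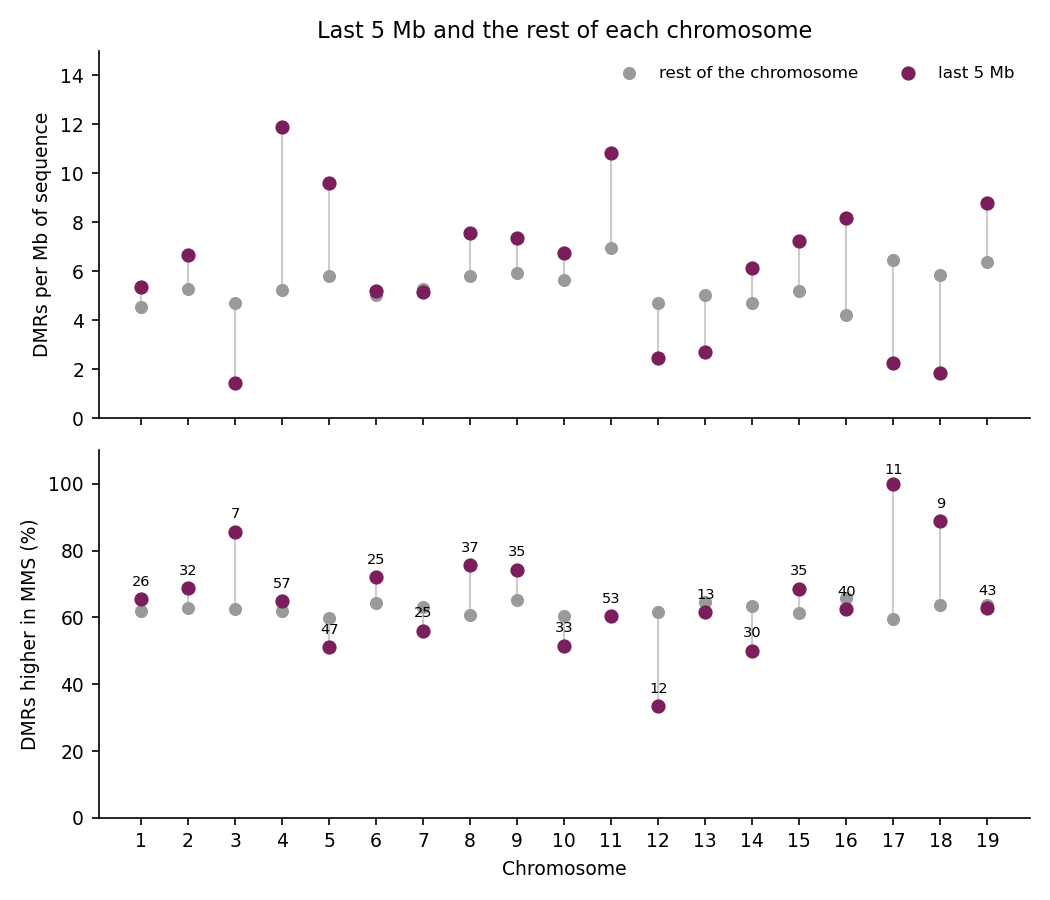
DMRs per Mb of sequence (top) and percent of DMRs with the higher mean in MMS (bottom) in the last 5 Mb and in the rest of each chromosome, joined by a line, with the number of distal DMRs above each distal point. Distal densities run from 1.43 to 11.9 per Mb around rest values of 4.21 to 6.94, which are averages over far longer stretches. The most extreme shares in MMS, 33.3% and 100%, belong to ends with 12 and 11 DMRs.

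Over all 479 windows of 5 Mb counted back from each distal end, density followed CpG content, with a Pearson r of 0.900 and a Spearman rho of 0.909. Over the 19 distal windows alone r was 0.943 and rho 0.911. These describe windows that share libraries, and meDIP itself takes up fragments by their CpG content, so no p is attached. Of the 19 distal windows 14 were above the median density of all windows, 4.94 per Mb, 3 were in the top 10%, and 0 ranked first in their own chromosome. With the windows split into 3 classes of equal number by CpG content, 11 distal windows fell in the highest class. Within classes the distal windows were at 8.18 per Mb (11 windows) against 8.42 in the highest, 4.86 (4 windows) against 4.98 in the middle and 1.99 (4 windows) against 2.78 in the lowest class. The end of chromosome 15 stood low for its CpG content, with 1.31 per 100 bp and 7.22 DMRs per Mb.

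**Figure D3:**
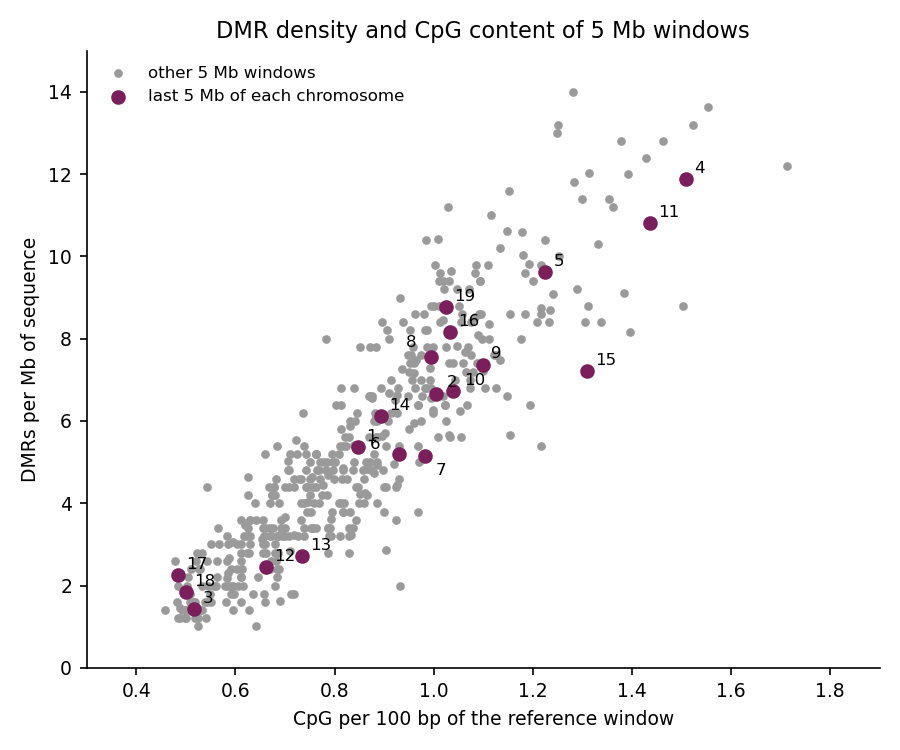
DMRs per Mb against CpG per 100 bp for 479 windows of 5 Mb, with the 19 distal windows marked by chromosome number. The distal windows lie along the same band as the others, from chromosome 3 at 1.43 per Mb to chromosome 4 at 11.9 per Mb.

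The direction of the differences at the ends was close to that of the whole. Of the distal DMRs 363 (63.7%) had the higher mean in MMS and 207 in control, against a background of 62.4% of all DMRs on these chromosomes. The 95% Wilson interval, which covers counting error only, was 59.7 to 67.5 for the distal share and 61.4 to 63.1 for that of the rest, 62.3%. The distal share was the higher on 10 of 19 chromosomes. From 5 to 10 Mb it was 58.8% (55.5 to 62.1). At single ends the share varied widely on few DMRs. All 11 DMRs at the end of chromosome 17 were higher in MMS, against 59.5% in the rest of that chromosome, and 4 of 12 (33.3%) were at the end of chromosome 12, against 61.5%.

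At the end of chromosome 17 the control mean was at its lowest value in 8 of the 11 DMRs and was 1.19 at most, while MMS means lay between 3.14 and 4.58. At the end of chromosome 12, Ptprn2, the gene of a dense-core vesicle protein, held 1 DMR higher in control (5.16 and 3.32) and 1 higher in MMS (3.30 and 5.07). In Rapgef5, which encodes an exchange factor for Rap GTPases, the 2 DMRs were higher in control, at 4.22 against -0.24 and at 4.91 against 2.81. Ptprn2 and Rapgef5 were singled out after their values had been seen.

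The sizes of the differences matched those elsewhere closely. In the 363 DMRs higher in MMS the median difference was 3.41, with quartiles of 2.55 and 3.99 and a range of 0.76 to 6.21, against a median of 3.43 in the rest. In the 207 higher in control the median was -1.71, with quartiles of -2.20 and -1.36 and a lowest value of -5.37, against a median of -1.73. The median group means were 0.29 in control and 4.17 in MMS for the former, and 5.13 and 3.24 for the latter. So the DMRs higher in MMS mostly had a low mean in control and a moderate one in MMS. Those higher in control mostly had a higher mean in control and a moderate one in MMS. Control was at its lowest value in 183 of the DMRs higher in MMS (50.4%, against 52.7% in the rest), and MMS was so in 11 of those higher in control (5.31%, against 4.58%). Among the 376 distal DMRs with neither group at its lowest value, 47.9% were higher in MMS, against 45.0% in the rest.

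**Figure D4:**
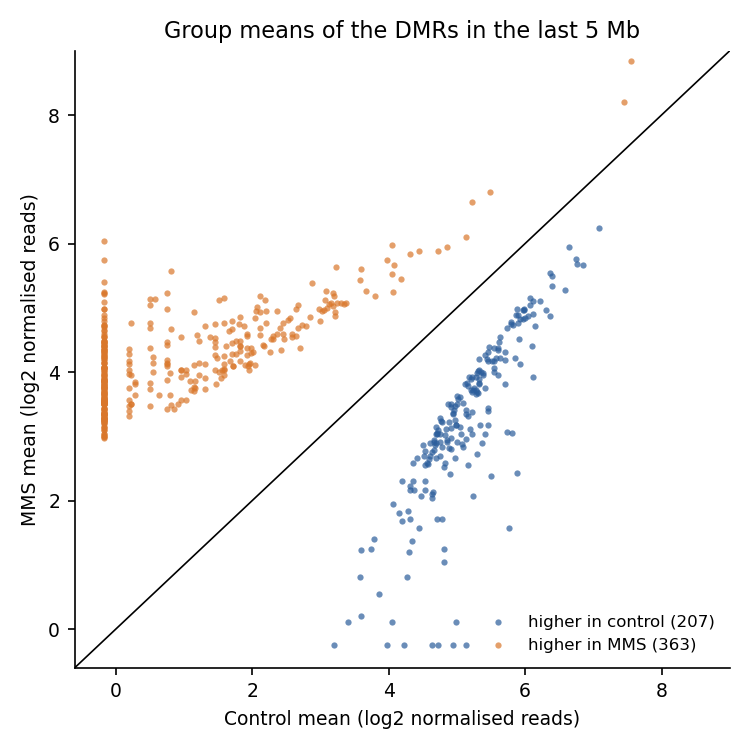
Control mean against MMS mean, both in log2 normalised reads, for each of the 570 distal DMRs, coloured by the group with the higher mean; the line marks equal means. DMRs higher in MMS include a column of points at the lowest control value of -0.17, and DMRs higher in control form a band below the line.

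The DMRs higher in control held more CpG than those higher in MMS, with medians of 1.54 and 1.38 per 100 bp, and the same order was seen in the rest, with 1.42 and 1.26. Distal DMRs were 569.5 bp wide at the median, against 542 bp. They had a GC content of 49.1% against 47.4%, and repeat sequence took up 19.1% of their length against 20.7%. Alignment to the genome at 95% identity over at least 90% of the DMR placed 2 of the 570 elsewhere as well. These were chr2:177534667-177534940, with 17 further copies on the same chromosome, and chr13:119608988-119609369 in Tmem267, with 1. How far reads from the copies can be told apart there was not tested. The highest means of all belonged to the neighbouring DMR chr13:119595514-119603075, in an intron of the same gene and 73.9% repeat sequence, with 7.55 in control and 8.84 in MMS.

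The first DMR before a chromosome end lay between 127 kb (chromosome 5) and 1629 kb (chromosome 8) from it. The assembly closes with a run of N at each end, and the DMR on chromosome 5, chr5:151708045-151708270, was 26.5 kb from the last sequenced base. It was at the lowest value in control and at 3.33 in MMS. Next came chr3:159875148-159875323 (1.31 in control and 3.91 in MMS), inside Wls, which encodes the carrier needed for Wnt secretion, and an intergenic DMR, chr2:181936975-181937511 (1.46 and 4.47). The nearest to an end among those higher in control were chr19:61248365-61248771 (4.61 and 2.90), chr15:103823064-103823272 (4.95 and 3.35) and chr4:156147958-156148623 (3.86 and 0.55). At the inner edge of the set, the last DMR inside lay 4998 kb from the end of chromosome 6 (0.79 and 3.98), and the first outside lay 5001 kb from the end of chromosome 8 (4.32 and 0.20).

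Telomere-like sequence was rare. At least 2 tandem copies of TTAGGG, on either strand, were found in 2 distal DMRs (0.351%) and in 12 of the rest (0.0978%), of which 2 lay in the proximal 5 Mb. One of the distal pair is shown by its last 200 bases, which hold its longest run. They are on the plus strand of GRCm38, with each copy of TTAGGG in capitals.
Near the end of chromosome 11, chr11:121894887-121895086: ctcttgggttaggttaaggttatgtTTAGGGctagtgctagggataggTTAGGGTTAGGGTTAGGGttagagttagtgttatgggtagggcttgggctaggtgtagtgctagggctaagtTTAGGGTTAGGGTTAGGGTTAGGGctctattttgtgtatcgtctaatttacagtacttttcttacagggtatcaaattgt
It lay 188 kb from the chromosome end, held 19 copies in all with a longest run of 4, and was higher in MMS (4.05 in control and 5.98 in MMS). The other had the longer run, lay 4419 kb from the end of its chromosome and was higher in control (6.76 and 5.69).

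In both directions, the DMRs with the largest differences among those measured above the lowest value in both groups were a mixture of genic and intergenic sequence. Toward MMS they were the intergenic chr8:126709493-126710174 (0.81 in control and 5.58 in MMS), the intergenic chr6:148683298-148684440 (0.50 and 5.14), an exonic DMR of Sprtn at chr8:124901969-124902242 (0.57 and 5.14), an intronic DMR of Megf6 at chr4:154259178-154260643 (0.50 and 5.05), and chr9:120146667-120148580 (0.75 and 5.23), 2.1 kb from Mobp. Sprtn encodes a protease that repairs DNA-protein crosslinks, and Mobp a protein of central myelin. Toward control the largest was in Timeless, at chr10:128244538-128245030 (5.76 and 1.58), whose product works at the replication fork. Others among the largest were chr6:148711014-148711176 (4.81 and 1.05) and the intergenic chr7:142244289-142244697 (4.27 and 0.81) and chr16:96090395-96091180 (5.88 and 2.43).

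Where 1 group was at its lowest value, the highest means were an intergenic DMR at chr4:153126767-153128279 (6.04 in MMS), one at the end of Prr13 at chr15:102459932-102461588 (5.75 in MMS) and one in an intron of Tbcd, a tubulin-folding cofactor, at chr11:121478023-121478984 (5.40 in MMS), each with -0.17 in control. In the other direction they were in Mob2 at chr7:142012632-142012802 (5.13 in control and -0.24 in MMS) and the intergenic chr1:190666453-190666639 (4.99 and 0.12) and chr19:60331324-60331501 (4.95 and -0.24). These 3 were narrow, 171 to 187 bp, and held 0 to 2 CpG.

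Taken as a whole, the distal windows held 12.1 protein-coding genes per Mb against 8.55 in the rest, with a median length of 13.9 kb against 17.8 kb. A few ends carried this excess, among them those of chromosomes 10 (33.9 per Mb), 15 (28.7), 7 (27.0) and 11 (22.4), and gene density was the higher distally on 10 chromosomes and the lower on 9. Of the distal DMRs 298 (52.3%, Wilson interval 48.2 to 56.4) had their centre in the body of a protein-coding gene, against 49.0% in the rest. Over chromosomes the mean difference of these shares was -0.746 percentage points with an SD of 12.8. Such a DMR was present in 188 of the 1120 genes whose midpoint lay in the last 5 Mb, which is 16.8% (14.7 to 19.1), against a background of 19.5% of all autosomal genes and 19.7% of genes in the rest. The gene-dense ends of chromosomes 10 (9.04% of 166 genes) and 7 (9.92% of 131) weighed on that share. The distal share was the lower on 12 of 19 chromosomes and the higher on 7, with a mean difference over chromosomes of 0.841 percentage points and an SD of 10.4, larger than that difference. Among genes over 100 kb the shares were 68.0% and 64.4%, among those of 50 to 100 kb 44.8% and 36.8%, among those of 10 to 50 kb 14.2% and 16.3%, and among those under 10 kb 2.17% and 3.13%. By annotated feature 265 distal DMRs were intronic (46.5%, against 45.7%), 226 intergenic (39.6%, against 41.1%) and 32 in promoters of any gene type (5.61%, against 4.03%). The others were 23 at transcription ends, 20 in exons, 3 in 3′ UTRs and 1 in a 5′ UTR.

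Counting DMR centres in the last 5 Mb, 190 protein-coding genes held at least 1. Of these 126 held 1, 39 held 2, and 25 held 3 or more. The 7 with 5 or more are Prdm16, Fry, Camta1, Rps6kc1, Rptor, Cdh4 and Atrnl1. A further 5 held 4 each, of which Disc1, Gfra1 and Dock9 had the most per kb of gene and are described with them, while Ulk4 (2 higher in MMS and 2 in control) and Rbfox3 (3 and 1) are tied in count. Some of them moved 1 way throughout and others carried DMRs of both directions.

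Prdm16, which encodes a zinc-finger regulator of brown fat and neural stem cells, held 7 DMRs over its 321 kb on chromosome 4, all intronic. In 5 of them control was at -0.17 and MMS lay between 3.56 and 4.31. The sixth, at chr4:154633064-154634273, had 1.93 in control and 4.59 in MMS, and the seventh, at chr4:154339703-154340002, was higher in control (5.71 and 4.19). Atrnl1, an attractin-like gene on chromosome 19, held 5 DMRs, all higher in MMS, with control means of -0.17 in 3 and of 2.12 and 2.98 in the others, and MMS means between 4.17 and 5.09. Disc1, which encodes a scaffold protein of neuronal development, held 4 on chromosome 8, all higher in MMS, with -0.17 in control in 2 and 1.47 and 2.53 in the others. Dock9, an exchange factor for Cdc42, held 4 on chromosome 14, all higher in MMS and all measured in both groups, from 1.59 to 3.60 in control and from 4.31 to 5.60 in MMS.

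Fry, the gene of a microtubule-associated protein, went mostly the other way. Of its 6 DMRs on chromosome 5, 5 were higher in control, with 3.60 to 4.73 in control, and MMS was at its lowest value in 4 of these and at 2.59 in the fifth. Rptor, which encodes the scaffold of the mTORC1 complex, held 4 DMRs higher in control, all measured in both groups and nearly alike in size, with differences from -1.50 to -1.38, and 1 higher in MMS (-0.17 and 4.35). Gfra1, the gene of the GDNF co-receptor, held 3 higher in control (4.20 to 5.23 against 1.69 to 3.69) and 1 higher in MMS, with 0.23 in control and 4.76 in MMS.

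Camta1, Rps6kc1 and Cdh4 were mixed. Camta1, a calmodulin-binding transcription activator, runs across the inner edge of the window and held 6 distal DMRs, 4 higher in control and 2 in MMS, out of 17 in the whole gene. The largest of its means was at chr4:151701600-151703272, with 5.23 in control and 6.65 in MMS. Rps6kc1, a member of the ribosomal S6 kinase family, held 5, with 3 higher in control and 2 in MMS and no mean under 2.70. Cdh4, which encodes the adhesion protein R-cadherin, held 5, of which the 3 higher in MMS had control at -0.17 and the 2 higher in control were 5.55 against 4.38 and 4.58 against 2.57.

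**Figure D5:**
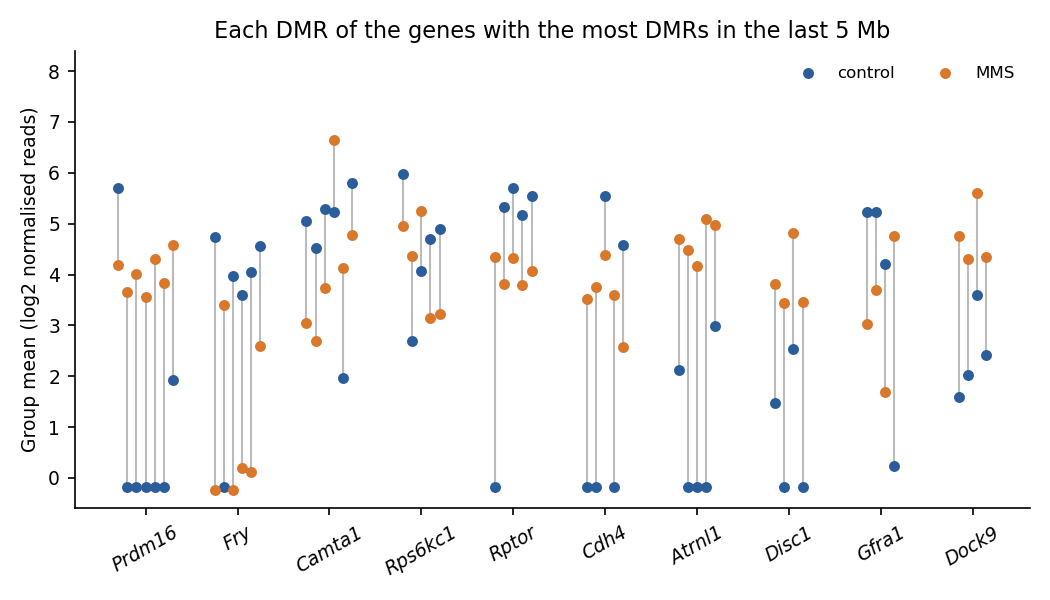
Control and MMS means, in log2 normalised reads, of each distal DMR in 10 of the 12 genes with 4 or more of them, joined by a line and ordered by position within a gene. In Atrnl1, Disc1 and Dock9 MMS is above control in every DMR, while in Fry control is above MMS in 5 of 6.

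Promoter windows, taken around the annotated start of any transcript of a protein-coding gene, held 19 distal DMRs (3.33%, against 2.61% in the rest), 12 higher in MMS and 7 in control. Of these 16 were at starts inside the gene, 4.45 to 219 kb from its 5′ end, and 3, at Sarnp, Gcgr and Krt75, lay within 1 kb before that end. They were not CpG islands by content, with a median of 1.75 CpG per 100 bp and 0 above 5. The largest toward MMS were at Slc4a8 (chr15:100781038-100781435, 4.74), Kcnab2 (chr4:152423457-152423998, 4.23), Gcgr (chr11:120529517-120529954, 3.55) and Pan3 (chr5:147530227-147530744, 3.03), where control was at -0.17 and the value given is that of MMS, and at Ipo8 (chr6:148775373-148775717), with 2.06 in control and 4.95 in MMS. These genes encode a sodium-driven bicarbonate exchanger, a potassium channel subunit, the glucagon receptor, a subunit of a deadenylase and a nuclear import receptor. Toward control they were at Fry (chr5:150257140-150257307, 3.97 and -0.24), Baiap2 (chr11:119959010-119959167, 4.32 and 2.23), Cfap74 (chr4:155421062-155421217, 4.86 and 2.94), Sarnp (chr10:128817142-128817295, 4.68 and 2.87) and Deaf1 (chr7:141310970-141311242, 5.25 and 3.76). Apart from Gcgr and Sarnp these were starts inside the gene, from 11.9 kb (Cfap74) to 139 kb (Fry) from its 5′ end. The Fry DMR holds no CpG and is 94.6% repeat sequence. Baiap2 encodes an actin-regulating scaffold of the postsynapse, and Deaf1 a transcription factor.

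Gene families were counted next, beside the same families in the rest of the autosomes. The shares of all genes, 16.8% in the distal windows and 19.7% in the rest, and their dependence on gene length apply to each of them. Of 16 ion channel genes in the distal windows 7 held a DMR (43.8%, against 38.5%), at a median length of 79.4 kb against 42.0 kb. They held 12 DMRs, 9 of them higher in MMS, where 63.7% of all distal DMRs were. Scn8a, a neuronal sodium channel, held -0.17 in control and 4.48 in MMS at its 3′ end, and 4.86 and 5.94 in an intron. Both DMRs of Kcnh1, a voltage-gated potassium channel, had -0.17 in control, with 4.20 and 3.77 in MMS. Kcnab2 held an intronic DMR (0.75 and 4.15) beside the one at its internal start. Of 7 synaptic adhesion and scaffold genes 6 held a DMR (85.7%, against 36.4%), and these 7 had a median length of 423 kb against 79.7 kb in the rest. They held 12 DMRs, 8 higher in MMS and 4 in control, the latter in Cdh4, Syt8 (5.61 and 4.38) and Shank2 (5.93 and 4.83). Both DMRs of Dscam, a neuronal recognition molecule, were higher in MMS (0.75 and 4.19, -0.17 and 3.50).

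Imprinted genes are expressed from 1 parental copy under methylated control regions, and distal chromosome 7 holds a cluster of them. Of 18 listed genes there, H19, Igf2, Cdkn1c and Kcnq1ot1 among them, 1 held a DMR (5.56%), against 16.8% of all distal genes, 14.2% of distal genes of 10 to 50 kb and 32.1% of the listed imprinted genes elsewhere. It was Kcnq1, a potassium channel gene, with intronic DMRs at chr7:143147655-143148263 (2.65 in control and 4.98 in MMS) and chr7:143181727-143181891 (1.03 and 3.56). The median length of the 18 genes was 20.7 kb, against 38.5 kb elsewhere. None of the 5 neurotransmitter receptor genes, Chrna4, Oprl1, Gabrd, Drd4 and Adrb1, held a DMR, against 33 of 110 in the rest, and their median length was 10.9 kb against 35.0 kb. Of 11 genes for hypothalamic hormones, neuropeptides and their receptors 2 held a DMR (18.2%, against 17.2%). These were Rxfp2, a relaxin-family receptor (0.50 and 4.77, 3.19 and 5.23), and Ntsr1, a neurotensin receptor (4.92 and 2.97). Cck, Tac2, Npb, Npff and Adcyap1, which encode neuropeptides, held 0.

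Of 28 developmental transcription factor genes 3 held a DMR (10.7%, against 17.0%), Prdm16, Erg and Prdm15. Of their 11 DMRs 10 were higher in MMS, but 7 of the 11 lie in Prdm16 alone, and the same list had 44 of 69 higher in MMS in the rest. The 29 keratin genes, most of them in a cluster on chromosome 15, held a DMR in 3 (10.3%, against 2.63%), and their median length was 7.77 kb against 1 kb in the rest, so unlike genes are set side by side. The DMRs were in Krt8 (-0.17 and 3.28), Krt77 (3.79 and 1.41) and Krt2 (5.33 and 4.03). Of 11 Wnt, FGF, TGF-beta and Notch genes 2 held a DMR (18.2%, against 30.4%), Dvl1 (-0.17 and 3.62) and Acvrl1 (3.23 and 5.63). Of 12 genes in a list of collagen, matrix and integrin genes 3 did (25%, against 42.3%), the laminin gene Lamb3 and the integrin genes Itga5 and Itgb7. Of 11 DNA methylation and chromatin genes 2 did (18.2%, against 29.1%), the remodelers Chd5 (2.12 and 5.18, -0.17 and 3.51) and Smarcc2 (0.96 and 4.55), all higher in MMS. Of 15 zinc finger protein genes 2 did (13.3%, against 12.2%), Zfp445 and Zfp941. With 5 to 29 genes in each list, 1 gene moves these shares by 3 to 20 percentage points.

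The 250 kb with the most DMR centres was also sought at each end. The most in any 250 kb was 8, reached at the end of chromosome 8, over Egln1, Sprtn and Disc1, where 7 of the 8 were higher in MMS, and at the end of chromosome 19, over Tdrd1, Vwa2 and Ccdc186, where 3 of 8 were. The densest 250 kb of chromosome 4, over Acot7, Chd5 and Kcnab2, held 6, all higher in MMS. That of chromosome 11, over Enpp7 and Tbc1d16, held 7, of which 1 was higher in MMS, and that of chromosome 10, over Kif5a, Os9 and Eef1akmt3, held 7, of which 2 were. Those of chromosome 1 (3 of 7 higher in MMS) and chromosome 5 (3 of 6) were mixed. So neighbouring DMRs at the ends included stretches mostly of either direction and mixed ones. These stretches were found by their count, no like count was made in the rest, and they are given as a description.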

How the data were processed

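Per the labels and the methods of the study, the authors aligned the meDIP reads to mm10. Broad peaks were called by the authors in MACS2 2.1 with the inputs as background and the human genome size setting, and DiffBind compared the groups (processing notes of the submitters also name HOMER 4.8). Per the methods of the study, the data were also normalised to the pooled input of each group, with subtraction involving an IgG control. The inputs and the IgG control were not used here on their own. The authors' deposited table gives, for each DMR, the log2 mean of normalised reads in each group, in columns named untreated and treated that were read as control and MMS. Its columns for the fold difference, p-value and FDR of the authors were not used. It holds no value per library, so no test was run and the reads of each library behind a value are not given. The methods of the study state total reads per sample as a range only.

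The centre of each of the 12949 DMRs was placed against the chromosome lengths of GRCm38.p6. Chromosomes X, Y and unplaced sequence (104 DMRs) were left out. Density is per Mb without runs of N. Features and genes came from GENCODE vM21 (a promoter spans the 1000 bp before and the 100 bp after a start), and CpG, GC and soft-masked repeat shares from the reference sequence. Copies elsewhere were sought with BLAST 2.17.0. Analyses ran in Python 3.11.15 with pandas 2.3.3, scipy 1.17.1 and numpy 2.4.6, and plots in matplotlib 3.10.9.

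The members, gene lists and rules were chosen with earlier results of these data known. Named were the 10 protein-coding genes with the most distal DMR centres (ties by DMRs per kb of gene), in each direction the 5 DMRs with the largest difference among those with both means more than 0.5 above the lowest value, the 3 with the highest mean opposite a group at its lowest value, the 3 nearest to an end and the 5 promoter DMRs with the largest difference, the 3 with the most and the 3 with the fewest CpG per 100 bp at a width of at least 300 bp, and up to 4 genes with a DMR per gene list. Genes named as holding no DMR, the genes at single ends, those of the 250 kb stretches, Syt8, Shank2, Ulk4 and Rbfox3 were picked after their values were seen. The distance to the last sequenced base, the 5 to 10 Mb window, the count reckoned from CpG content, the telomere-repeat copies, the DMR with the highest means and the 250 kb stretches were chosen after seeing the data. Some items that these rules name are not reported here.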

Additional observations from a re-analysis of the deposited data

How the results depend on the processing

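The ratio of distal to other density, 1.16, turned to 0.777 for a window of 2 Mb and to 0.961 against the count reckoned from intervals of like CpG content, and was 1.72 for 5 to 10 Mb from the end. Under the other alternatives it stayed above 1, from 1.02 per CpG site to 1.46 for a window of 10 Mb, and between 1.10 (without chromosome 4) and 1.21 (without chromosome 17) with each chromosome left out. The share higher in MMS, 63.7%, was 69.1% for 2 Mb, 82.3% with a log2 difference of at least 2 (80.4% in the rest) and 47.9% with neither group at its lowest value (45.0% in the rest). It was 62.9% to 64.8% with each chromosome left out. The share of genes with a DMR, 16.8%, was 11.4% for 2 Mb, 21.0% for 10 Mb and 12.9% with a log2 difference of at least 2. The median CpG content lay between 1.28 and 1.495 per 100 bp and the share in gene bodies between 49.7% and 52.8% under every alternative run. The window lengths and the minimum difference change which DMRs and genes are counted, and no other cause was tested. No paired analysis was possible because the table holds group means without libraries, and for the same reason no library could be left out. What a group at its lowest value can show is limited by depth, which the table does not give per library. How far the normalisation to input and IgG shaped such values was not tested.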
